A study of Rattus norvegicus with 10 samples.

Results

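Hormone secretion depends on a shared set of proteins that build dense-core granules and fuse them with the plasma membrane, and 60 genes of that set were compared between rat islets that received an Nkx6.1 adenovirus and islets that received a control adenovirus. They were taken by gene symbol in the platform annotation, as all symbols that start with Syt and a digit or l, Stx, Vamp, Snap2, Rab3, Rab27, Rims, Cplx, Unc13, Chga, Chgb, Scg and a digit, or Pcsk. In all, 79 genes on 98 probes met that rule, and 60 of them had a value in at least 3 samples of each group, out of 9974 such genes on the array. The other 19 genes were too sparsely measured to be compared. The prefix Rab3 also took 8 genes from Rab30 to Rab39, whose products are mostly Rabs of other membrane routes, and they are kept apart below.

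The islets, which are the small endocrine organs within the pancreas, came from male Sprague-Dawley rats of about 250 g. Their age is not given. About 200 islets per condition were cultured at 8 mM glucose and exposed for 18 h to 5E9 particles per ml of a virus whose CMV promoter drove either the hamster form of Nkx6.1 (a β-cell homeodomain factor) or β-galactosidase (bGAL), and then kept for 60 h more. Each group had 5 samples, which the labels call independent groups of islets without saying whether they shared animals. All 10 samples had therefore received a virus, and the promoter is not restricted to β cells. Islet RNA carried Cy5 and a common rat reference carried Cy3 on each array, and a value is the log2 ratio centred on the median of its probe over the 10 samples, so no level can be read and genes cannot be ranked by abundance. The direction, islet over reference, is likely but not stated, and every sign below rests on it.

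A few samples stood apart before any gene was compared. Between 27.3% and 32.5% of probes had no value on 5 arrays (Nkx6.1 replicate 1 and bGAL replicates 1, 2, 3 and 5, called array set 1). On the other 5 (Nkx6.1 replicates 2 to 5 and bGAL replicate 4, array set 2) the share was 0.816% to 9.13%. Array set and virus were therefore largely aligned. Nkx6.1 replicate 2 was far more spread over its probes than any other array, with an interquartile range of 1.09 log2 units where the remaining 9 had 0.35 to 0.58. The hormone genes Ins1, Ins2, Iapp, Gcg, Sst and Ppy had a value in all 10 samples, but centred values cannot show whether a marker was absent. The probe for endogenous rat Nkx6-1 had a log2 difference of −0.56 (Nkx6.1 minus bGAL, limma adjusted p = 0.55), and whether it detects the hamster transcript is not given, so it does not check the labels.

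As background, regulated secretion runs in steps. Granins and prohormone convertases are packed into the granule as its cargo, Rab3 and Rab27 proteins on the granule surface recruit effectors that bring it to the membrane, and Munc13 and RIM proteins prime it there. Fusion is driven when the vesicle SNARE, a VAMP protein, zips together with the target SNAREs, a syntaxin and SNAP25, under Sec1/Munc18 proteins, and synaptotagmins and complexins tie that step to calcium.

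No member passed the test between the groups. Of the 60 members, 0 had an adjusted p under 0.05 with limma, the moderated linear model used over all 9974 genes, where 15 genes (0.150%) did, 11 higher (0.110%) and 4 lower (0.0401%). At an unadjusted p under 0.05 there were 5 members (8.33%), Rab3a and Stx17 on the higher side and Rab27b, Rab39a and Snap25 on the lower, against 9.65% of all genes (4.54% on the higher side and 5.10% on the lower). The smallest adjusted p of a member was 0.47, for Stx17. Differences were positive for 30 members and negative for 30, with a median of −0.044 on the log2 scale, against a median of −0.052 and 45.5% positive over all genes. The median of the members was 0.032 after quantile normalisation of the arrays. Without Nkx6.1 replicate 2 the sign turned for 20 of the 60 members, against 15.6% of all genes. Because these are bulk samples, fewer cells of a type and less RNA per cell cannot be told apart.

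**Figure D1:**
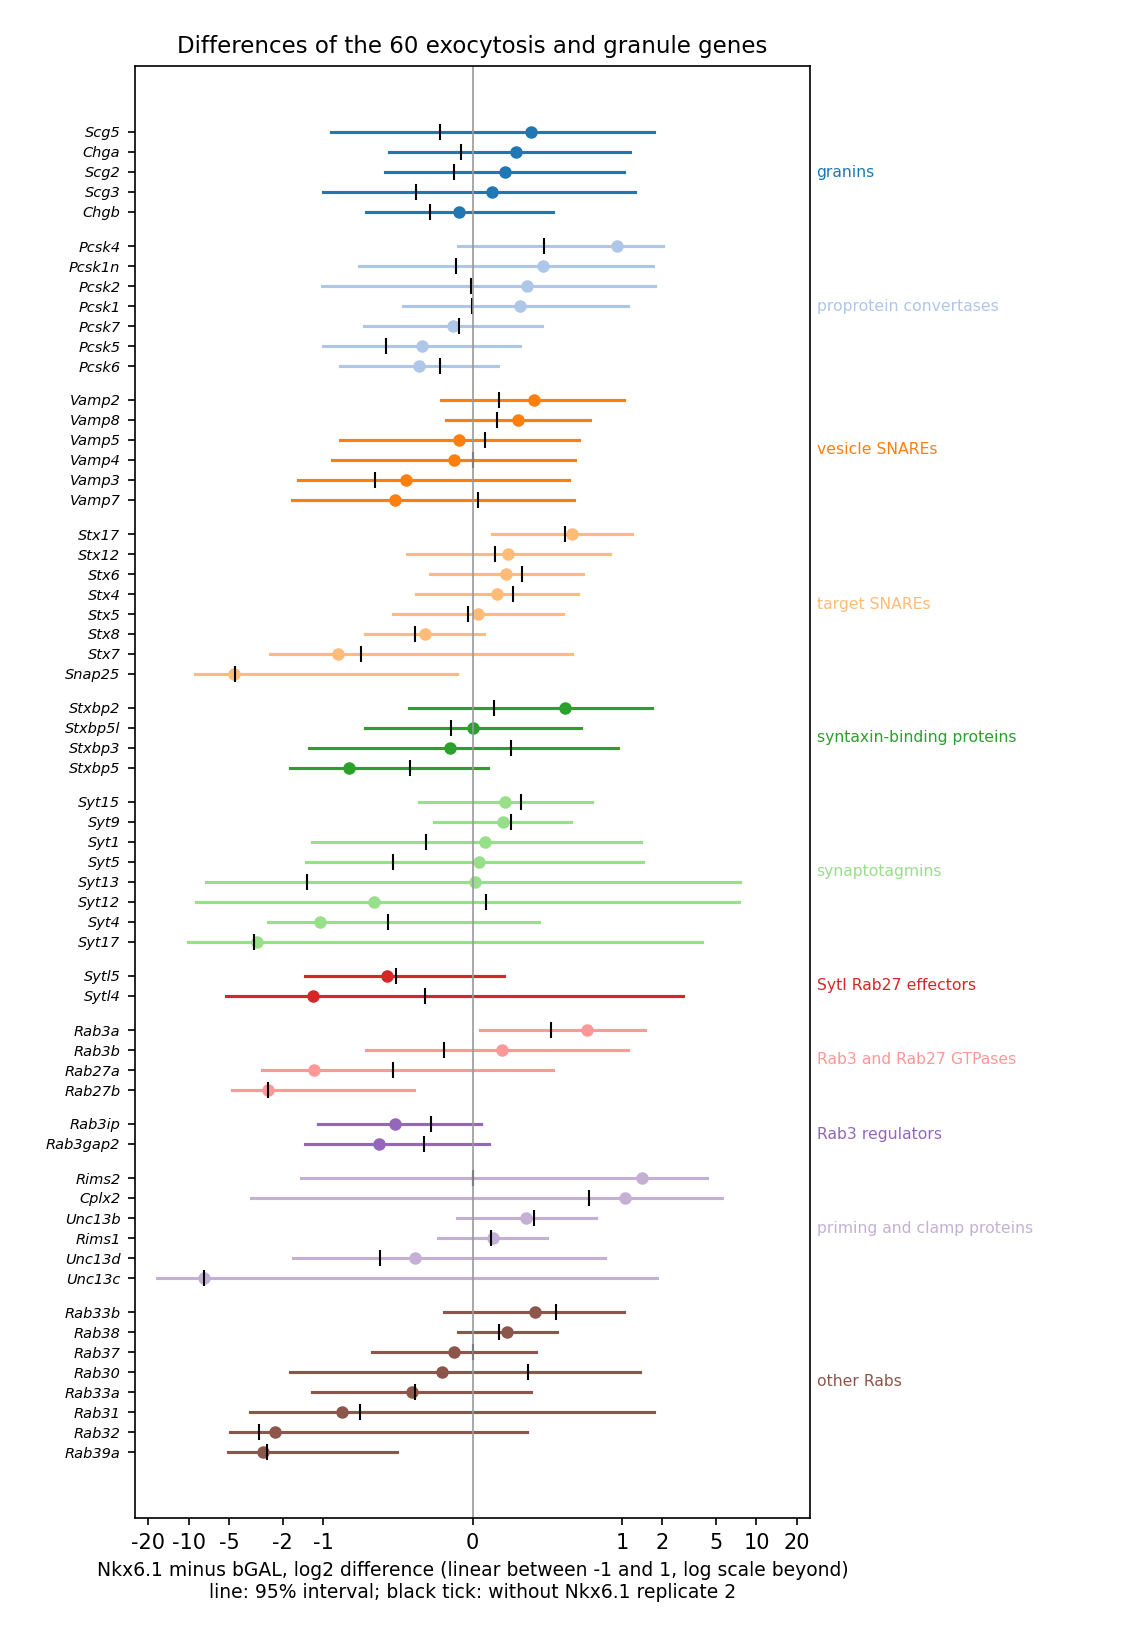
Nkx6.1 minus bGAL differences of the 60 members on the log2 scale, grouped by role, with dots for the limma estimate, lines for its 95% interval and black ticks for the estimate without Nkx6.1 replicate 2. The axis is linear between −1 and 1 and logarithmic beyond, and the widest interval is that of Unc13c.

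The granule cargo comprised the granins Chga and Chgb (chromogranins A and B, acidic proteins that help granules form), Scg2 and Scg3 (secretogranins) and Scg5 (7B2, the chaperone of convertase 2), with Pcsk1 and Pcsk2 (the convertases that cut proinsulin and proglucagon) and Pcsk1n (proSAAS, an inhibitor of Pcsk1). These 8 genes had differences between −0.089 (Chgb) and 0.47 (Pcsk1n), none past the threshold, and 7 of the 8 were positive. Chga had −0.073, 1.80, 0.40, −0.36 and −0.079 in Nkx6.1 replicates 1 to 5, against −0.11, 0.073, −0.23, 0.36 and 0.14 in bGAL replicates 1 to 5. A single sample, Nkx6.1 replicate 2, lay above all others, and the remaining 9 overlapped.

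Scg5 showed the same layout, with −0.10, 2.94, 0.084, −0.50 and 0.11 with the Nkx6.1 virus, against −0.14, 0.71, −0.084, −0.36 and 0.43 with the bGAL virus. Pcsk1n had −0.15, 2.77, 0.15, −0.37 and −0.10 with the Nkx6.1 virus, against −0.18, 0.18, −0.39, 0.24 and 0.10 with the bGAL virus. In both genes Nkx6.1 replicate 2 was more than 2 log2 units above the next sample of either group. Scg3 had −0.12, 2.39, −0.18, −0.53 and 0.19 with the Nkx6.1 virus, against −0.074, 0.65, −0.0036, 0.0036 and 0.52 with the bGAL virus. For Pcsk1 the values were 0.028, 1.54, 0.077, −0.62 and 0.25 with the Nkx6.1 virus, against −0.20, −0.028, −0.26, 0.23 and −0.064 with the bGAL virus. Nkx6.1 replicate 2 held the highest value for 7 of the 8 cargo genes, all but Pcsk2, against 25.1% of all genes. The lowest cargo values came mostly from Nkx6.1 replicate 4. It was the lowest of the 10 samples for 5 of the 8 (Chga, Scg2, Scg3, Scg5 and Pcsk1), against 6.20% of all genes. The highest and the lowest sample for those 5 genes thus both received the Nkx6.1 virus. Chgb was flatter, with −0.50, 0.79, −0.10, −0.47 and 0.31 with the Nkx6.1 virus, against 0.38, 0.38, −0.30, 0.044 and −0.044 with the bGAL virus.

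**Figure D2:**
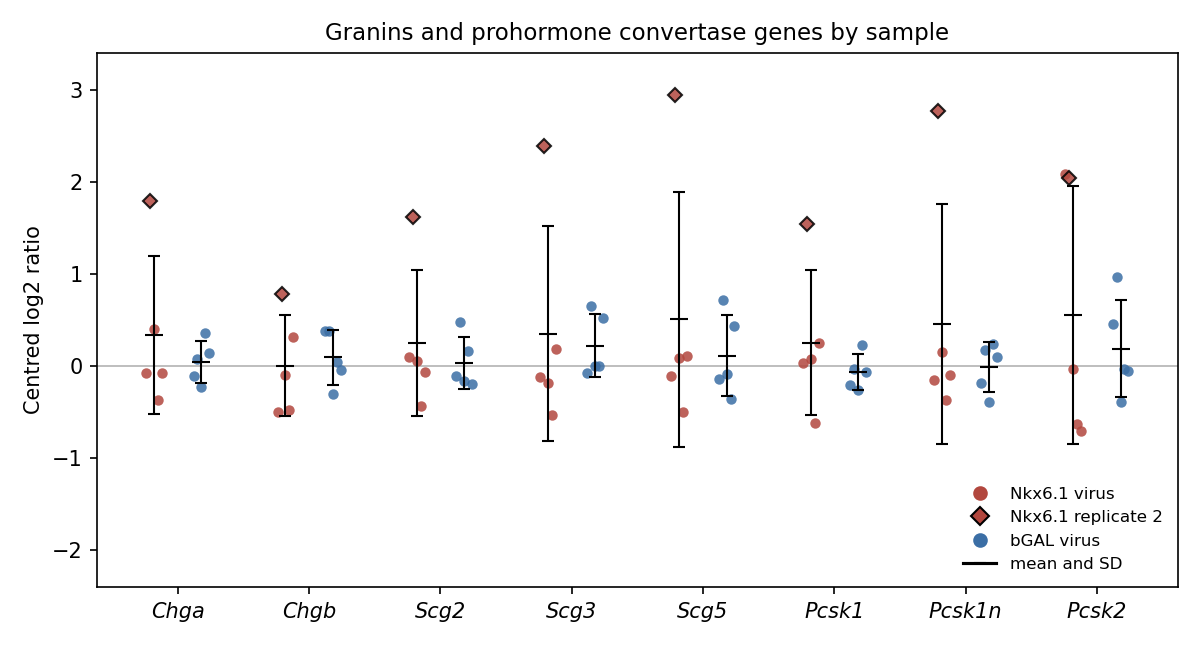
Centred log2 ratios of 5 granins and 3 convertase genes in each sample, with dots for samples (diamonds mark Nkx6.1 replicate 2) and bars for the mean and SD of 5 samples. Outside Nkx6.1 replicate 2 and the Pcsk2 value of 2.08 in Nkx6.1 replicate 1, every value lies between −0.70 and 0.97.

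Over the 8 cargo genes the mean per sample was 1.99 in Nkx6.1 replicate 2, −0.49 to 0.16 in the other 4 Nkx6.1 samples and −0.23 to 0.43 in the bGAL samples. With all samples, Chga differed by 0.29 (95% interval −0.56 to 1.14), Scg5 by 0.39 (−0.95 to 1.73) and Pcsk1n by 0.47 (−0.76 to 1.70). Without Nkx6.1 replicate 2 the differences of all 8 were at or below 0, from −0.38 for Scg3 to −0.0013 for Pcsk1, and their median was −0.11 against 0.30 with it. When 1 sample was left out, the sign of these genes therefore turned only with Nkx6.1 replicate 2, except for Chgb and Pcsk2. Chgb was 0.038 without Nkx6.1 replicate 1 and 0.031 without Nkx6.1 replicate 4. Pcsk2 turned without Nkx6.1 replicate 1 too, to −0.020. With all samples, Scg3 was −0.098 after quantile and −0.20 after scale normalisation, and Scg5 −0.0015 after scale normalisation. For the 7 genes other than Pcsk2, the widest bounds of the 95% intervals without that sample were −0.87 and 0.45, or 0.545-fold to 1.37-fold. Changes of over 2-fold lay outside these intervals in those 9 samples, but the sample left out was the highest for each of these 7 genes. Larger changes are therefore not excluded. With all samples the upper bounds were 2.20-fold for Chga, 2.15-fold for Pcsk1 and 3.25-fold for Pcsk1n, against 1.45-fold for Chgb.

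Hormone genes of several islet cell types were high in the same sample, and other markers of these cell types were not uniformly so. In Nkx6.1 replicate 2, Ins1, Ins2 and Iapp of β cells were at 3.14, 2.60 and 2.88, and Gcg, Sst and Ppy of the other endocrine cells at 2.06, 2.12 and 1.82. Slc2a2, a glucose transporter, was at 0.77 there, and rat Nkx6-1 at −1.22, its lowest value of the 10 samples. The other markers tested of α and δ cells were below 0 in that sample, with Ttr at −0.49, Hhex at −1.43 and Rbp4 at −0.77. Hhex and Rbp4 also differed between the groups, by −1.82 and −2.92 (limma adjusted p = 0.025 and 0.013). The mean of β-cell markers over the 5 that could be tested (Ins1, Ins2, Iapp, Nkx6-1 and Slc2a2, of 7 listed) was 1.63 in Nkx6.1 replicate 2, −0.32 to 0.57 in the other Nkx6.1 samples and −0.38 to 0.31 in the bGAL samples. Acinar markers, with 8 of 13 tested, averaged 1.20 in Nkx6.1 replicate 2, −0.17 to 1.21 in the other Nkx6.1 samples and −0.16 to 0.31 in the bGAL samples. What part any of these had in the cargo values was not tested.

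Within array set 1, where 1 Nkx6.1 sample met 4 bGAL samples, the median difference of the 8 cargo genes was −0.058, and within array set 2, with 4 against 1, it was 0.17. Pcsk2 is measured by 2 probes that did not match. The first had −0.42, 3.36, 0.12, −0.48 and 0.16 with the Nkx6.1 virus, against −0.48, 0.48, −0.81, 0.076 and −0.076 with the bGAL virus, with the high value in Nkx6.1 replicate 2. The second had 4.59, 0.73, −0.18, −0.77 and −1.56 with the Nkx6.1 virus, against 1.40, 1.46, 0.034, −0.15 and −0.034 with the bGAL virus, with the high value in Nkx6.1 replicate 1. Scg2, as the mean of its 2 probes, had 0.096, 1.62, 0.059, −0.44 and −0.066 with the Nkx6.1 virus, against −0.11, 0.47, −0.16, 0.17 and −0.19 with the bGAL virus. Both of its probes were highest in Nkx6.1 replicate 2, at 1.99 and 1.26.

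Promoters of the cargo genes are shown here because 7 of the 8 had their highest value in the same sample. That sample, Nkx6.1 replicate 2, was also the highest for 25.1% of all genes, and a shared cause was not tested. RefSeq windows on the GRCr8 build, 250 bases before to 50 after the annotated start, were matched by symbol for 47 of the 60 members and for 6 of the 8 cargo genes. Capitals mark TAAT or ATTA, the core that homeodomain proteins such as Nkx6.1 read on either strand, and TGACGTCA, the cAMP response element, a palindrome that does not overlap the core. The windows are Scg2 (chr9:88256817-88257116, minus strand), Scg3 (chr8:85322435-85322734, minus strand) and Pcsk1n (chrX:17255356-17255655, minus strand).
Scg2: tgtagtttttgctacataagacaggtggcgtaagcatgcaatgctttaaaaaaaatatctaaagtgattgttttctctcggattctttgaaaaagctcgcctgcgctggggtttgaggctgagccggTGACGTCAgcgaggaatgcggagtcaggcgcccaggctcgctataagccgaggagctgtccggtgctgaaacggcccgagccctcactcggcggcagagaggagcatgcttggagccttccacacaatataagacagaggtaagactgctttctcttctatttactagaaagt
Scg3: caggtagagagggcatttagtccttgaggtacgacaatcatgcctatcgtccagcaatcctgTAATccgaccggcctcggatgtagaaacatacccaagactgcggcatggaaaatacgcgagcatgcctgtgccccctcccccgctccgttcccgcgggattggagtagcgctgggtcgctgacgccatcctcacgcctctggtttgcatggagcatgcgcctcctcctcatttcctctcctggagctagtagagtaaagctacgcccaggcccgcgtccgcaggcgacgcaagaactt
Pcsk1n: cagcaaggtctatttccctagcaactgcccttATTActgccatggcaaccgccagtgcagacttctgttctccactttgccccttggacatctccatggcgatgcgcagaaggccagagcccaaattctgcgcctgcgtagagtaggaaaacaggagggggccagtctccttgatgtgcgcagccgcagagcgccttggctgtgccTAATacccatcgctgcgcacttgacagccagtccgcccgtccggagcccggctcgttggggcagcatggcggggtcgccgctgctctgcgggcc
The core was found once in Scg3 and in Chgb, 2 times in Pcsk1n and not in the windows of Scg2, Scg5 and Pcsk2. Over the members, 15 of 47 windows (31.9%) held it, against 60.6% of all 33469 windows in the table. TGACGTCA was in 1 of the 47 members' windows, that of Scg2, where it begins 123 bases before the start, and in 1.83% of all windows. The shorter motif TGACG or CGTCA, which the full site contains, was in 16 of 47 members' windows (34.0%) and 4 of 6 cargo windows, against 21.2% of all windows. Both were searched for after the results were known. The members had 1 window per gene, and the other windows were not matched to them for base composition, so the shares are description only. A match is a run of letters and shows no binding.

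The remaining convertases act mostly outside the hormone granule or in other tissues. Pcsk5, Pcsk6 and Pcsk7 had differences of −0.34, −0.36 and −0.13. For Pcsk5, 1 probe had values in array set 2 only, and the probe measured in every sample differed by −0.044. Its gene value thus averaged different probes in the 2 array sets. Pcsk4, a convertase known from germ cells, had 0.96 (95% interval −0.097 to 2.02, limma adjusted p = 0.54), and 0.48 without Nkx6.1 replicate 2. Its values were −0.0096, 2.90, 0.39, 0.87 and 0.63 with the Nkx6.1 virus, against −0.0096, −0.0096, −0.0096, 0.0096 and −0.0096 with the bGAL virus. Every array set 1 sample of Pcsk4 sat at one common value, and the 4 Nkx6.1 samples of array set 2 lay above it.

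Among the SNAREs, Snap25 had the largest difference in size of the target SNAREs and Vamp2 the largest of the vesicle SNAREs on the positive side, and neither passed. Snap25, the plasma membrane SNARE that lends 2 helices to the fusion complex, differed by −4.55 as the mean of its 2 probes (95% interval −9.0 to −0.10, limma adjusted p = 0.51). The first probe had −1.53, 0.25, −0.25, −0.79 and −0.86 with the Nkx6.1 virus, against 19.93, 17.37, 3.24, −0.78 and 1.06 with the bGAL virus. Here bGAL replicates 1 and 2 were far above the rest, bGAL replicates 3 and 5 lay above every Nkx6.1 sample, and bGAL replicate 4 lay among them. The second probe had 0.81, −1.43, −0.020, −0.55 and 0.0072 with the Nkx6.1 virus, against 0.020, 0.40, −0.17, −0.0072 and 0.12 with the bGAL virus, with full overlap. By probe, the difference was −8.80 for the first and −0.31 (−1.12 to 0.51) for the second. The values of the first probe in bGAL replicates 1 and 2 are not read as folds here. Within array set 2 the gene differed by −0.060.

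**Figure D3:**
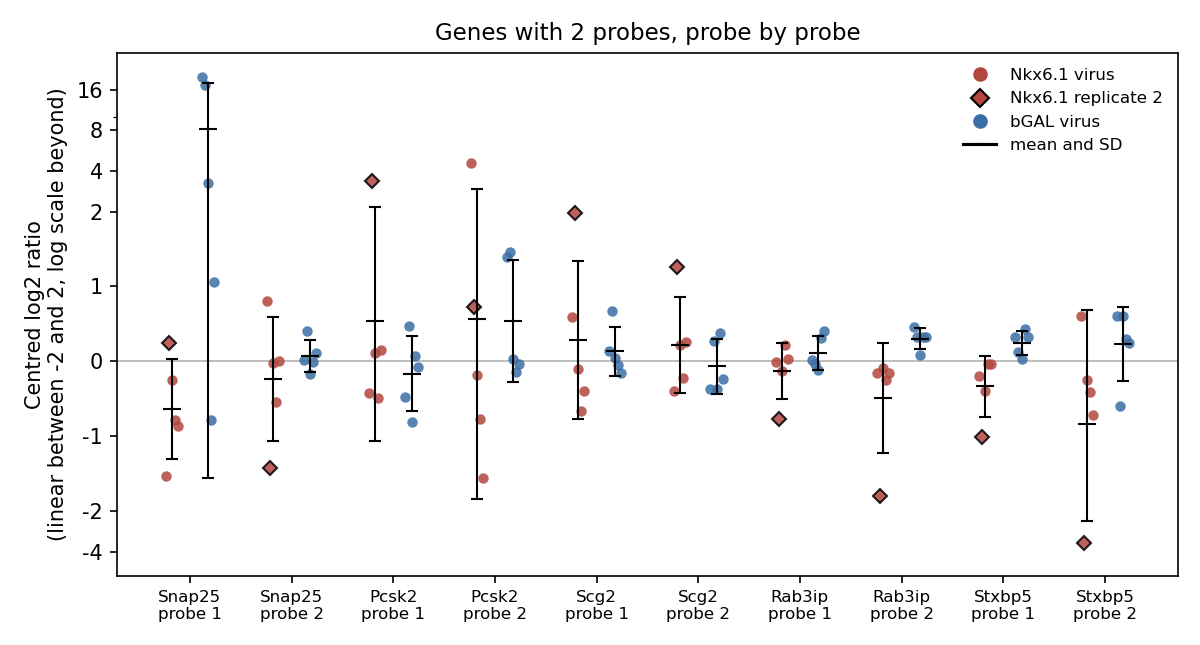
Centred log2 ratios of 5 genes with 2 probes each, with dots for samples, diamonds for Nkx6.1 replicate 2 and bars for the mean and SD of 5 samples, on an axis that is linear between −2 and 2 and logarithmic beyond. The probes of Snap25 and Pcsk2 disagree, while those of Scg2, Rab3ip and Stxbp5 place Nkx6.1 replicate 2 on the same side.

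Stx17, a syntaxin of autophagosomes and the endoplasmic reticulum rather than of granules, was the member with the smallest p. It had 0.57, 0.40, −0.11, 0.17 and 0.11 with the Nkx6.1 virus, against −0.53, −1.02, −0.27, 0.16 and −0.51 with the bGAL virus. The difference was 0.66 (95% interval 0.13 to 1.20, limma adjusted p = 0.47), 1.16 within array set 1 and −0.015 within array set 2. All Nkx6.1 values were above those of the 4 bGAL samples of array set 1, and bGAL replicate 4, the only bGAL sample of array set 2, lay among them. The endosomal and Golgi syntaxins Stx5, Stx6, Stx7, Stx8 and Stx12 and the plasma membrane syntaxin Stx4 (named Stx5a and Stx4a in the annotation for Stx5 and Stx4) had differences from −0.90 (Stx7) to 0.24 (Stx12). Stx1a, the syntaxin of granule fusion, was not analysed here.

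Vamp2, the vesicle SNARE of insulin granules, had −0.056, 1.20, 0.091, 0.074 and −0.11 with the Nkx6.1 virus, against −0.34, −0.62, −0.056, 0.056 and 0.082 with the bGAL virus. Nkx6.1 replicate 2 was again the highest, and the other 9 samples overlapped. Its difference was 0.41 (95% interval −0.21 to 1.04) with all samples and 0.18 (−0.22 to 0.57) without that one. Vamp8, an endosomal and granule SNARE, differed by 0.31 and Vamp3, the SNARE of recycling endosomes, by −0.45. Vamp4, Vamp5 and Vamp7, which serve Golgi, muscle and lysosomal routes, had −0.13, −0.089 and −0.52.

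The syntaxin-binding proteins split by sample in the same way. Stxbp2 (Munc18-2, a Sec1/Munc18 protein of granule exocytosis) had 0.071, 2.39, 0.017, 0.084 and −0.14 with the Nkx6.1 virus, against −0.60, 0.24, −0.21, −0.017 and −0.086 with the bGAL virus, with Nkx6.1 replicate 2 the highest. Stxbp5 (tomosyn, which blocks SNARE assembly) had 0.21, −2.22, −0.32, −0.22 and −0.38 with the Nkx6.1 virus, against 0.47, −0.24, 0.32, 0.36 and 0.29 with the bGAL virus, with that sample the lowest. The differences were 0.62 for Stxbp2 and −0.83 for Stxbp5, and 0.14 and −0.42 without it. Stxbp3 (Munc18-3, the partner of Stx4) and Stxbp5l (a second tomosyn) differed by −0.15 and by less than 0.001, and by 0.26 and −0.14 without that sample.

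Of the 4 Rab3 and Rab27 GTPases tested, none passed, and 2 differences were positive and 2 negative. Rab27b, a docking GTPase of secretory granules, had 0.73, −2.03, −1.78, −5.68 and −1.84 with the Nkx6.1 virus, against 0.73, 0.73, 0.73, −0.73 and 0.73 with the bGAL virus. Its difference was −2.56 (95% interval −4.73 to −0.39, limma adjusted p = 0.49). All 5 samples of array set 1 shared 1 value, and within array set 2 the 4 Nkx6.1 samples lay below the single bGAL sample, with a difference of −2.10. With a term for the array set, the difference was −1.05 (limma adjusted p = 0.99).

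Rab27a, the Rab27 form best known from β-cell granules, had 1.44, −3.21, −0.19, −0.0090 and −1.46 with the Nkx6.1 virus, against 0.98, 0.0090, 1.26, −0.26 and 0.38 with the bGAL virus. Nkx6.1 replicates 2 and 5 were the lowest, and the others overlapped. It differed by −1.16 with all samples, −0.53 without Nkx6.1 replicate 2, and 0.78 within array set 1 and −0.96 within array set 2. Sytl4 (granuphilin, the Rab27a effector that docks insulin granules) and Sytl5, a related Rab27 effector, differed by −1.18 and −0.57. Sytl4 spanned −2.33 to 6.26 with the Nkx6.1 virus and 0.17 to 7.85 with the bGAL virus, and its sign turned with quantile normalisation (0.41) and without bGAL replicate 1 (0.21). The first of its 2 probes had values only in Nkx6.1 replicates 3 to 5 and bGAL replicate 4. The gene value thus averaged different probes across samples, and the probe measured in every sample differed by −1.63.

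Rab3a, the Rab of synaptic vesicles and insulin granules, had −0.25, 1.59, 0.33, 1.02 and 0.41 with the Nkx6.1 virus, against −0.25, −0.25, −0.25, 0.25 and −0.25 with the bGAL virus. The 5 samples of array set 1 sat at a common low value in this gene too, and the 4 Nkx6.1 samples of array set 2 were all above bGAL replicate 4. Rab3a differed by 0.77 (95% interval 0.049 to 1.49, limma adjusted p = 0.51) and by 0.30 with the array set term. Rab3b, another secretory Rab3, had a difference of 0.20 with all samples and −0.19 without Nkx6.1 replicate 2, where its value was 1.76.

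Rab3ip (Rabin8, an exchange factor for Rab8) was the only member whose groups did not overlap, where 3.93% of all genes had groups apart in either direction and 1.91% with Nkx6.1 below. It had −0.083, −1.28, −0.10, −0.019 and −0.065 with the Nkx6.1 virus, against 0.24, 0.15, −0.019, 0.32 and 0.36 with the bGAL virus. The gap between the groups was narrow, since the highest Nkx6.1 sample, replicate 4, and the lowest bGAL sample, replicate 3, differed by less than 0.001. The two-sided p by exact permutation was 0.0079, the smallest that 5 against 5 can give. Any gene with 5 values apart from 5 gives that p, so it adds nothing to the lack of overlap. The difference was −0.52 (95% interval −1.10 to 0.059, limma adjusted p = 0.54), and −0.28 without Nkx6.1 replicate 2. Of its 2 probes, the first had overlapping groups and a difference of −0.24, and the second had groups apart and a difference of −0.79. Rab3gap2, the noncatalytic subunit of the Rab3 GTPase-activating complex, differed by −0.62, and by −0.32 without Nkx6.1 replicate 2.

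Synaptotagmins could be compared for 8 of the 16 genes on the array, and none passed. Syt4, an atypical synaptotagmin of β-cell granules, had 1.02, −2.55, −0.82, −0.70 and 0.044 with the Nkx6.1 virus, against 0.69, 1.22, −0.044, −0.96 and 1.36 with the bGAL virus. Its difference of −1.05 (95% interval −2.55 to 0.44) became −0.57 without Nkx6.1 replicate 2, the lowest sample, and 0.086 with the array set term. Syt5, a calcium sensor of dense-core granules, had 0.35, 2.34, −1.53, −0.64 and −0.23 with the Nkx6.1 virus, against −0.21, 0.30, 0.21, −0.58 and 0.36 with the bGAL virus, with Nkx6.1 samples at both ends. Its difference was 0.041, turned to −0.53 without Nkx6.1 replicate 2, and was −0.13 after quantile normalisation. Syt1, a fast calcium sensor of synaptic vesicles, was measured in 4 Nkx6.1 and 3 bGAL samples and differed by 0.086 (95% interval −1.21 to 1.38), by −0.089 after quantile normalisation and by −0.31 without Nkx6.1 replicate 2. Syt9, a calcium sensor also found on dense-core granules, and Syt15 differed by 0.20 and 0.22. Syt12, Syt13 and Syt17 each had a value above 13 in at least 1 sample. Of these, Syt17 had the difference farthest from 0, −3.10, with a value of 15.60 in bGAL replicate 2, and it was 0.16 without that sample.

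Priming proteins and complexins were equally scattered. Unc13c (Munc13-3, known from cerebellum) had the most negative difference of all members, −7.66 (95% interval −17.12 to 1.81, limma adjusted p = 0.55). It rested on bGAL replicates 2 and 5, at 17.91 and 19.47, while the other 8 samples lay between −0.99 and 1.03. Only 1 probe of Unc13c had values in array set 1, so the gene value averaged different probes in the 2 array sets. On that probe bGAL replicate 4 was at 3.11, and the difference was −7.92. Rims2, the RIM protein of β-cell granule priming, had the most positive difference, 1.40. It was set by Nkx6.1 replicate 2 at 7.07 and was 0.0055 (95% interval −0.42 to 0.43) without that sample. The 7.07 is a mean over probes, and 1 of them was at 19.29 with a value in only 1 bGAL sample. The Rims2 probes measured in every sample were at 0.82 and 1.11 in Nkx6.1 replicate 2, with differences of 0.18 and 0.23. Cplx2, a complexin that clamps and promotes SNARE-driven fusion, had 5.90, 2.51, −1.26, −0.29 and 0.29 with the Nkx6.1 virus, against −2.61, 6.89, −2.61, −1.32 and 1.54 with the bGAL virus, and all Nkx6.1 values lay within the bGAL range. Its difference was 1.05, and −0.065 without Nkx6.1 replicate 1. Unc13b (Munc13-2) differed by 0.36, Rims1 by 0.13 and Unc13d (Munc13-4, which acts in lytic granules of leukocytes) by −0.39.

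Of the 8 Rab30 to Rab39 genes, 6 had negative differences, and 4 without Nkx6.1 replicate 2 (Rab30 turned to 0.37 and Rab37 to 0.0013), against 54.5% negative over all genes with all samples. Rab39a (named Rab39 in the annotation) had −1.67, −1.46, 0.023, −0.023 and −0.34 with the Nkx6.1 virus, against 3.99, 1.5, 5.09, −0.33 and 0.20 with the bGAL virus, and differed by −2.78 (95% interval −5.06 to −0.51, limma adjusted p = 0.48), −4.37 within array set 1 and −0.12 within array set 2. Only bGAL replicates 1, 2 and 3, all of array set 1, had values above 1. Rab32, a Rab of lysosome-related organelles and mitochondria, differed by −2.29. It was at −4.01, −6.20 and −3.63 in Nkx6.1 replicates 3 to 5 and at −2.41 in bGAL replicate 4, and within 0.001 of 0 in the other 6 samples. The other 6 of these genes, most of which serve endosomal, Golgi and related routes, had differences of −0.20 for Rab30, −0.88 for Rab31, −0.40 for Rab33a, 0.42 for Rab33b, −0.12 for Rab37 and 0.23 for Rab38. With array weights Rab32 (−3.78, limma adjusted p = 0.043) and Rab33b (0.77, limma adjusted p = 0.049) passed, 2 of 60 members, against 4.31% of all genes under that weighting. All 11 leukocyte markers tested, of 15 listed, had negative differences. Their mean per sample was −0.78 to −0.41 with the Nkx6.1 virus and 0.20 to 0.85 with the bGAL virus, and their part in these values was not tested.

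Several members shared a feature of the measurement. A floor, meaning one value repeated on 3 or more arrays for a probe, was present in 24 of the 60 (40.0%), against 40.7% of all genes, and in 0 of the 8 cargo genes. A probe value above 8 in size occurred in 6 members (Rims2, Snap25, Syt12, Syt13, Syt17 and Unc13c), against 4.78% of all genes. For 9 members (Pcsk4, Rab27b, Rab32, Rab33b, Rab3a, Syt15, Syt9, Unc13b and Vamp3) the difference within array set 1 was within 0.001 of 0. Their difference over all samples thus combined the contrast within array set 2, which has 1 bGAL sample, with the gap between the array sets. Within array set 2 it was 1.19 for Pcsk4 (0.96 over all samples), −2.10 for Rab27b (−2.56 over all samples), −1.05 for Rab32 (−2.29 over all samples), −0.0066 for Rab33b (0.42 over all samples), 0.59 for Rab3a (0.77 over all samples), −0.43 for Syt15 (0.22 over all samples), 0.11 for Syt9 (0.20 over all samples), 0.047 for Unc13b (0.36 over all samples) and 0.81 for Vamp3 (−0.45 over all samples).

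**Figure D4:**
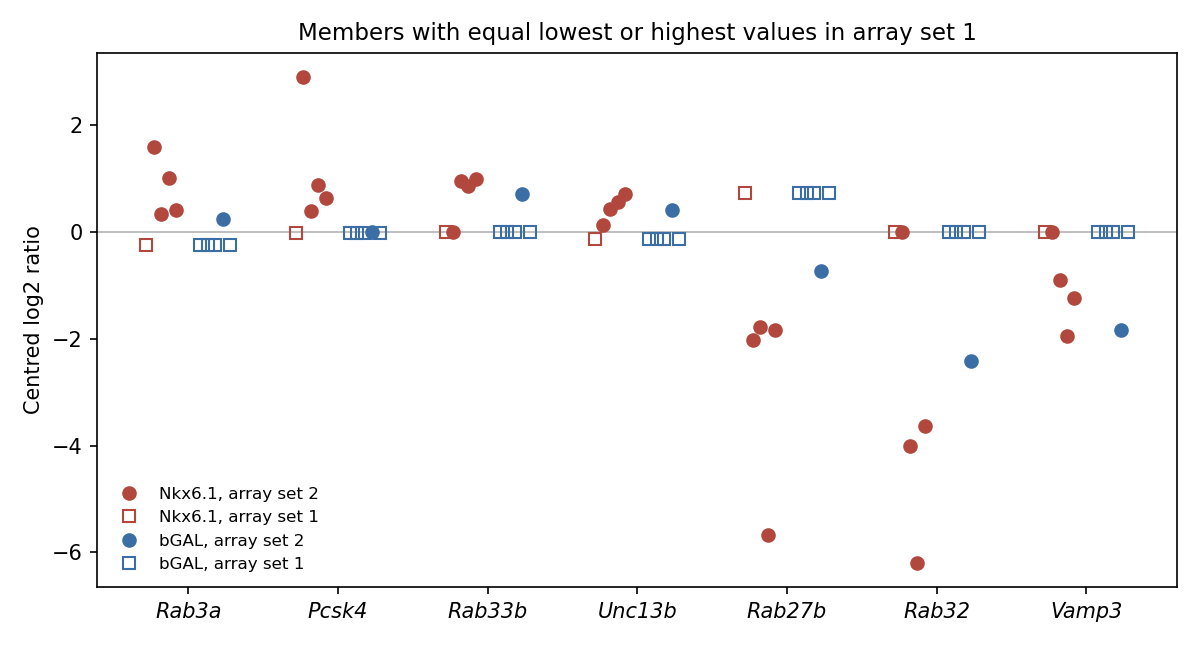
Centred log2 ratios of 7 members by sample, with filled circles for array set 2 and open squares for array set 1. The open squares of both groups coincide for each gene, and only bGAL replicate 4 stands for the bGAL virus among the filled circles.

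Extreme values were spread unevenly over the samples. Nkx6.1 replicate 2 was the highest of the 10 samples for 18 members (30%), against 25.1% of all genes, and the lowest for 11 (18.3%), against 28.1%. The 18 were the 7 cargo genes, Rab3a, Rab3b, Vamp2, Vamp8, Stxbp2, Syt1, Syt5, Rims2, Pcsk4, Pcsk5 and Rab38. The 11 included Rab27a, Sytl4, Syt4, Stxbp3, Stxbp5, Vamp7, Rab3ip and Rab3gap2. Nkx6.1 replicate 4 was the lowest for 12 members (20%), against 6.20% of all genes.

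**Figure D5:**
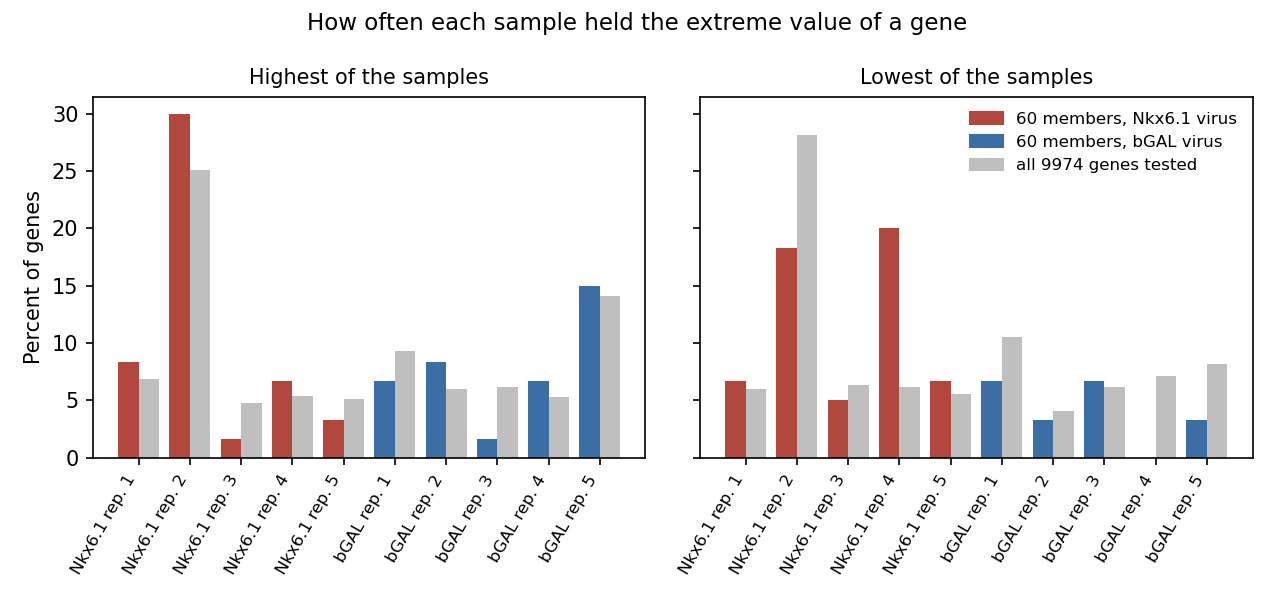
Percent of genes for which each sample held the highest (left) or the lowest value (right), for the 60 members (red and blue bars) and for all 9974 genes tested (grey bars). Nkx6.1 replicate 2 has the tallest bars for the highest value, 30% of members and 25.1% of all genes.

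The 19 genes with too few values were Cplx1, Cplx4, Rab3d, Rab3il1, Rims3, Rims4, Snap29, Stx3, Stx11, Stx16, Syt2, Syt3, Syt6, Syt7, Syt8, Syt10, Syt11, Syt16 and Unc13a, and 16 of them had no value on any array of set 1. Syt7, the high-affinity calcium sensor of β-cell granules, had values in array set 2 only, of 0.00, 0.29, −0.0036 and 0.43 in Nkx6.1 replicates 2 to 5, against 0.52 in bGAL replicate 4. Unc13a (Munc13-1, the main priming factor of β cells) had 0.53, 0.0063 and 0.13 in Nkx6.1 replicates 3 to 5, against 0.19 in bGAL replicate 4. With 1 bGAL sample no test was possible, and the bGAL value lay above the Nkx6.1 values for Syt7 and among them for Unc13a.

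Beyond the rule, 54 of 72 listed genes of the same route (SNARE recycling factors, exocyst and synapsin genes, vesicle membrane proteins and further granule cargo) could be tested. With limma 0 passed and 7 had an unadjusted p under 0.05, against 9.65% of all genes. The difference was positive for 21 and negative for 33, against 45.5% positive over all genes, and the median difference was −0.077. The smallest p belonged to Vgf, a granule peptide precursor, with 0.96, 3.30, 0.84, 0.52 and 0.98 with the Nkx6.1 virus, against −0.65, −1.09, −0.52, −0.95 and −1.15 with the bGAL virus. Its groups did not overlap. It differed by 2.19 (limma adjusted p = 0.19) and, without Nkx6.1 replicate 2, by 1.70 (limma adjusted p = 0.009), where 0.361% of all genes passed. Napg (γ-SNAP, which helps NSF take spent SNARE complexes apart) had 0.72, −0.033, 0.26, 0.29 and 0.37 with the Nkx6.1 virus, against −1.21, −0.43, −0.58, 0.033 and −0.39 with the bGAL virus. Its difference was 0.83 (95% interval 0.29 to 1.38, limma adjusted p = 0.36), with only Nkx6.1 replicate 2 below a bGAL sample. Sv2b, a vesicle membrane glycoprotein, differed by 0.45. On the lower side were Syn2, a synapsin that tethers vesicles (−0.42), and the exocyst subunits Exoc1 (−0.59) and Exoc3 (−0.39), with limma adjusted p between 0.48 and 0.50. Exoc3 had −0.32, −0.090, −0.16, −0.018 and −0.18 with the Nkx6.1 virus, against 0.018, 0.19, 0.16, 0.19 and 0.60 with the bGAL virus. Its groups did not overlap, although Nkx6.1 replicate 4 and bGAL replicate 1 lay close together. The groups of Syn2 were narrowly apart as well, between −0.020 in Nkx6.1 replicate 5 and 0.020 in bGAL replicate 4. Over all genes, 3.93% had groups apart in either direction.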

How the data were processed

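Two-colour oligonucleotide arrays measured 10 islet samples, 5 for each virus, after 2 rounds of RNA amplification, per the labels' protocols. The deposited values are log2 ratios, and on every probe with 10 values they had a median within 0.001 of 0, so the authors' values are centred per probe. Background correction, normalisation and the rule for missing values are not stated in the labels or headers, nor is the log base, taken as 2. The direction is likely islet over reference: of probes with a floor, 4 of 4 for glucose sensing and 6 of 8 neuronal lay above it, against 0 of 4 for DNA replication, 1 of 5 for mitosis and 4175 of 7805 over all such probes. The number of arrays, floored probes and the array sets limit precision.

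Probes were averaged per gene, named from the platform annotation with symbols updated through RefSeq (GRCr8). Each average used the probes with a value in that sample, so it can rest on different probes in different samples. Genes with at least 3 values in each group were fitted with limma 3.58.1 (lmFit, eBayes) in R 4.3.3, with Benjamini-Hochberg adjustment over all 9974. Python 3.11.15 with pandas 2.3.3 and numpy 2.4.6 made the tables, and matplotlib 3.10.9 the figures. The fit was checked on simulated data. Members named in full were any past an adjusted p of 0.05, any with groups apart, the 6 largest differences each way and 22 listed by name, and of the partner genes the 3 smallest p each way. Members and lists were chosen with earlier results of these data known. P-values measure the spread between samples only.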

Additional observations from a re-analysis of the deposited data

Results flagged for a closer look

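A sample was picked out where its gap to the nearest other sample of its group, as a share of the range of that group, exceeded 0.710 with 5 samples or 0.829 with 4. Of 53 groups tested for the named members, 14 had such a sample, and chance gives about 1 in 20 for groups not chosen by their values. That rate does not apply here, since 12 of the genes were chosen for large differences and 4 groups held tied values. Nkx6.1 replicate 2 accounted for 8 of the 14. Each gene is followed by the log2 value of that sample and the share. Among the Nkx6.1 samples, replicate 2 was the high one for Rims2 (7.07, 0.903), Stxbp2 (2.39, 0.912), Vamp2 (1.20, 0.843), Scg2 (1.62, 0.740), Scg3 (2.39, 0.754), Scg5 (2.94, 0.822) and Pcsk1n (2.77, 0.833), and the low one for Rab3ip (−1.28, 0.932). Replicate 1 was the low one for Syt17 (−2.85, 0.856).

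Among the bGAL samples, replicate 4, the only one of array set 2, was the high one for Pcsk4 (0.0096, 1.0) and Rab3a (0.25, 1.0) and the low one for Rab27b (−0.73, 1.0) and Rab32 (−2.41, 1.0). In these 4 genes the other bGAL samples shared 1 value. Replicate 1 was the high one for Sytl4 (7.85, 0.811). The causes were not tested.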

How the results depend on the processing

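The number of members past the threshold stayed at 0 under every alternative that was run except array weights, where it was 2. Over all genes the count of 15 became 3 with an array set term, 27 with quantile and 23 with scale normalisation, 430 with array weights, and 2 to 36 when 1 sample was left out. The median difference of the members ranged from −0.11 to 0.054 when 1 sample was left out, the high end without bGAL replicate 5. For the 27 named members, 564 alternatives gave 47 changes of sign in 16 genes, 1 value that newly passed (Rab32 with array weights, −3.78) and 516 with neither. When 1 sample was left out, differences that changed sign ranged from −0.065 to 2.68 for Cplx2, −4.45 to 0.16 for Syt17, −0.31 to 0.31 for Syt1, −0.53 to 0.44 for Syt5, −2.47 to 0.21 for Sytl4, −0.075 to 0.47 for Chga, −0.28 to 0.038 for Chgb, −0.12 to 0.39 for Scg2, −0.38 to 0.35 for Scg3, −0.22 to 0.65 for Scg5, −0.0013 to 0.54 for Pcsk1, −0.11 to 0.68 for Pcsk1n and −0.020 to 0.68 for Pcsk2. With the array set term they were 0.086 for Syt4 and 1.21 for Sytl4. Quantile normalisation gave −0.089 for Syt1, −0.13 for Syt5, 0.41 for Sytl4 and −0.098 for Scg3, and scale normalisation −0.14 for Syt1, −0.23 for Syt5, −0.20 for Scg3 and −0.0015 for Scg5. Array weights gave −1.27 for Cplx2, −0.027 for Syt1, −0.76 for Syt5, −0.20 for Scg2, −0.38 for Scg3, −0.24 for Scg5, −0.017 for Pcsk1n and −0.54 for Pcsk2. With the array set term and without Nkx6.1 replicate 2, a setting chosen after seeing the data, they were −0.069 for Rims2, 0.34 for Syt4, −0.014 for Syt5, 1.64 for Sytl4, 0.26 for Rab27a, −0.20 for Chga, −0.10 for Scg2, −0.29 for Scg3, −0.050 for Scg5, −0.073 for Pcsk1 and −0.21 for Pcsk1n. The causes were not tested. As a replicate block, the numbers gave 0 genes past the threshold with limma and 811 at an unadjusted p under 0.05. Same-numbered samples correlated at 0.17, −0.013, −0.100, 0.18 and −0.028 in their deviations. Replicates 1 and 4, at 0.17 and 0.18, were those with both samples in the same array set. The highest correlation, 0.25, was between Nkx6.1 replicate 1 and bGAL replicate 3, also of the same set. The check cannot separate pairing from array set, so whether the numbers pair the samples was not settled. The array set and the virus are largely confounded, with 1 sample of the rarer group in each set, and signal over background cannot be read from centred ratios.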
